A study of Mus musculus with 2 samples.

Results

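Pdk4 and 6 genes of fatty acid oxidation and its control were read in mouse embryonic fibroblasts (MEFs) that lacked BCL11B and in MEFs that carried it, early in adipocyte differentiation. The 7 genes, Pdk4, Cpt1a, Acadl, Slc25a20, Hilpda, Lpin1 and Ppargc1a, were chosen by name when the differences between these arrays had already been seen, so their values are a description and not a test. All 7 were measured, with 16 probe sets in all, among 18193 genes that the platform annotation pairs with at least 1 probe set of their own. The groups were BCL11B-KO MEFs, from mice null for BCL11B in all tissues, and WT MEFs, both grown from C57BL/6 embryos at embryonic day 12.5 and used at passage 2. Such cultures come from whole embryo tissue and hold cells of several kinds. Cells of both genotypes were kept for 12 h in medium with 10% fetal bovine serum, 10 μM pioglitazone, 10 μg/ml insulin, 1 μM dexamethasone and 0.5 mM methylisobutylxanthine (the study's methods add ascorbic acid), so that no array shows either genotype before induction. There was 1 Affymetrix Mouse Genome array of bulk RNA for each genotype, and neither the number nor the sex of the embryos is given in the sources used here. With 1 array per genotype there is no replicate check and no p-value. Differences are given as BCL11B-KO minus WT on the log2 scale, where 1.5-fold is the size used for counts.

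Cells choose between burning glucose and burning fat at the pyruvate dehydrogenase complex. PDK4 phosphorylates and switches off that complex, so that pyruvate is spared while fatty acids are oxidised, and in mice its gene is induced in fasting muscle, heart and liver. Long-chain fatty acids enter mitochondria through the carnitine shuttle, where CPT1A loads them onto carnitine at the outer membrane and SLC25A20 carries the acylcarnitine across the inner membrane, and acyl-CoA dehydrogenases such as ACADL then begin each round of β-oxidation. HILPDA and LPIN1 are not enzymes of oxidation. HILPDA inhibits the triglyceride lipase ATGL, LPIN1 makes diacylglycerol from phosphatidate, and PGC-1α, encoded by Ppargc1a, is a coactivator that raises transcription of oxidation genes. Many genes of this group are known targets of PPARs, the nuclear receptors whose γ form pioglitazone activates.

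The sequence just before each gene's start is shown as a description, and any regulator site farther away lies outside it. The sequences come from RefSeq on GRCm38.p6, which matched all 7 genes, and run 5′ to 3′ on the strand of the gene up to the base before the start site. The 250 bases before the single Pdk4 start lie at chr6:5496279-5496528 on the minus strand, and for the others 110 bases are shown. Capitals mark matches, on either strand, to AGGTCA (a half-site of nuclear receptors), TGACG (a half-site of the cAMP response element), ACGTG (the core of the hypoxia response element), CCAAT (the box bound by NF-Y) or GGGCGG (the GC box).
Pdk4: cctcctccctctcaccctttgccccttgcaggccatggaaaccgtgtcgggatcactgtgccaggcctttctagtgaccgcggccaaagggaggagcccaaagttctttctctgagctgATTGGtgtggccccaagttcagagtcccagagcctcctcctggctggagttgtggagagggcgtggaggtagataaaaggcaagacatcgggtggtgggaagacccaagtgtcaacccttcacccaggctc
Cpt1a (chr19:3323191-3323300, plus strand): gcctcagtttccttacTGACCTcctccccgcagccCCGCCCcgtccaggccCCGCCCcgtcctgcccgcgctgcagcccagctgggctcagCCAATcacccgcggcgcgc
Acadl (chr1:66863310-66863419, minus strand): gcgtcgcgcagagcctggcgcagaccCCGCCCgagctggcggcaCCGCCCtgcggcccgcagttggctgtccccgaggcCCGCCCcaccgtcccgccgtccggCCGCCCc
Slc25a20 (chr9:108662026-108662135, plus strand): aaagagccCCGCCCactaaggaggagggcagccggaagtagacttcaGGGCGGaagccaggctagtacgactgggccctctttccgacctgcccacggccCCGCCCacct
Hilpda, the second of 2 starts (chr6:29272516-29272625, plus strand): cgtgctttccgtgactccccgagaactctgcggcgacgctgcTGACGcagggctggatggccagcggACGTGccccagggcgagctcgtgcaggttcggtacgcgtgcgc
Lpin1 (chr12:16610967-16611076, minus strand): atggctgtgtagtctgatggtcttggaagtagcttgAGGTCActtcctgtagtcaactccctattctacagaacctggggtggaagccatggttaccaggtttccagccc
Ppargc1a (chr5:51567726-51567835, minus strand): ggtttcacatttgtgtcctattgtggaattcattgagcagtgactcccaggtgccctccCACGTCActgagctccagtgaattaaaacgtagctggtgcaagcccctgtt

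Over the 250 bases before each start, the Pdk4 window held 1 match, a CCAAT box on the opposite strand 131 to 127 bases before the start. AGGTCA was found in 2 of the 7 genes, 94 to 89 bases before the Cpt1a start and 74 to 69 bases before the Lpin1 start, and in 4607 of all 32851 windows of this length. The direct repeat of this half-site with 1 base between, AGGTCANAGGTCA, was in none of the 7 and in 0.0335% of all windows. GGGCGG was found in 4 genes, with 4 matches before Acadl and 3 before Slc25a20, against 32.7% of all windows. ACGTG was found before Hilpda and Ppargc1a, against 16.6% of all windows, and TGACG before the same 2 genes, against 17.8%, and for Ppargc1a both matches lie in CACGTCA and overlap. CCAAT was found before Pdk4 and Cpt1a, against 33.8% of all windows. TGTTTAC, a site of forkhead factors, and TTGCNNAA, a site of C/EBP factors, were in none of the 7 genes, and in 3.17% and 9.56% of all windows. These matches describe the letters in this window only.

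Pdk4 was the 1 gene of the 7 that differed by 1.5-fold. It read 9.21 in BCL11B-KO MEFs, against 8.40 in WT MEFs (log2 expression), so it was higher by 0.82 log2 units or 1.76-fold. Of all 12331 genes with a mean of at least 5 log2 units, 1.61% were higher in BCL11B-KO MEFs by 1.5-fold or more, 1.75% were lower by that much, and 87 genes had a larger positive difference than Pdk4. The array holds 1 probe set for Pdk4 alone, so no second probe set shows its difference. For scale, in the 5543 genes with several probe sets these scattered around their gene's mean difference with an SD of 0.145, a figure that holds no variation between cultures.

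The carnitine shuttle genes of the group lay close together in the 2 genotypes. Cpt1a, the gated step of the shuttle, read 9.09 in BCL11B-KO and 9.06 in WT MEFs on its brightest probe set, a difference of 0.028. Its second probe set read 8.69 in BCL11B-KO and 8.92 in WT MEFs (−0.23), and the last read 7.65 in BCL11B-KO and 7.77 in WT MEFs (−0.12). The direction for Cpt1a thus depended on the probe set. Slc25a20, the carrier of acylcarnitine, read 9.74 in BCL11B-KO and 9.64 in WT MEFs (0.10), and its second probe set read 7.70 in BCL11B-KO and 7.69 in WT MEFs (0.012). Acadl, the long-chain acyl-CoA dehydrogenase, read 10.18 in BCL11B-KO and 10.32 in WT MEFs (−0.14). Its other probe set averaged under 5 log2 units, where low values hold mostly background, with 3.94 in BCL11B-KO and 4.03 in WT MEFs.

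The genes of lipid droplet and transcriptional control all read slightly lower in BCL11B-KO MEFs on their brightest probe set. Lpin1 read 8.17 in BCL11B-KO and 8.37 in WT MEFs (−0.19), and 7.69 in BCL11B-KO and 7.89 in WT MEFs (−0.20) on its second probe set, so that its probe sets were alike in direction and size. Hilpda, with 1 probe set, read 7.16 in BCL11B-KO and 7.32 in WT MEFs (−0.16). Ppargc1a had 5 probe sets that did not run the same way. The brightest read 6.30 in BCL11B-KO and 6.40 in WT MEFs (−0.10), the next 5.72 in BCL11B-KO and 6.04 in WT MEFs (−0.32), and the next 5.63 in BCL11B-KO and 5.82 in WT MEFs (−0.19). The 2 dimmest averaged under 5 and differed by −0.021 and 0.25.

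**Figure D1:**
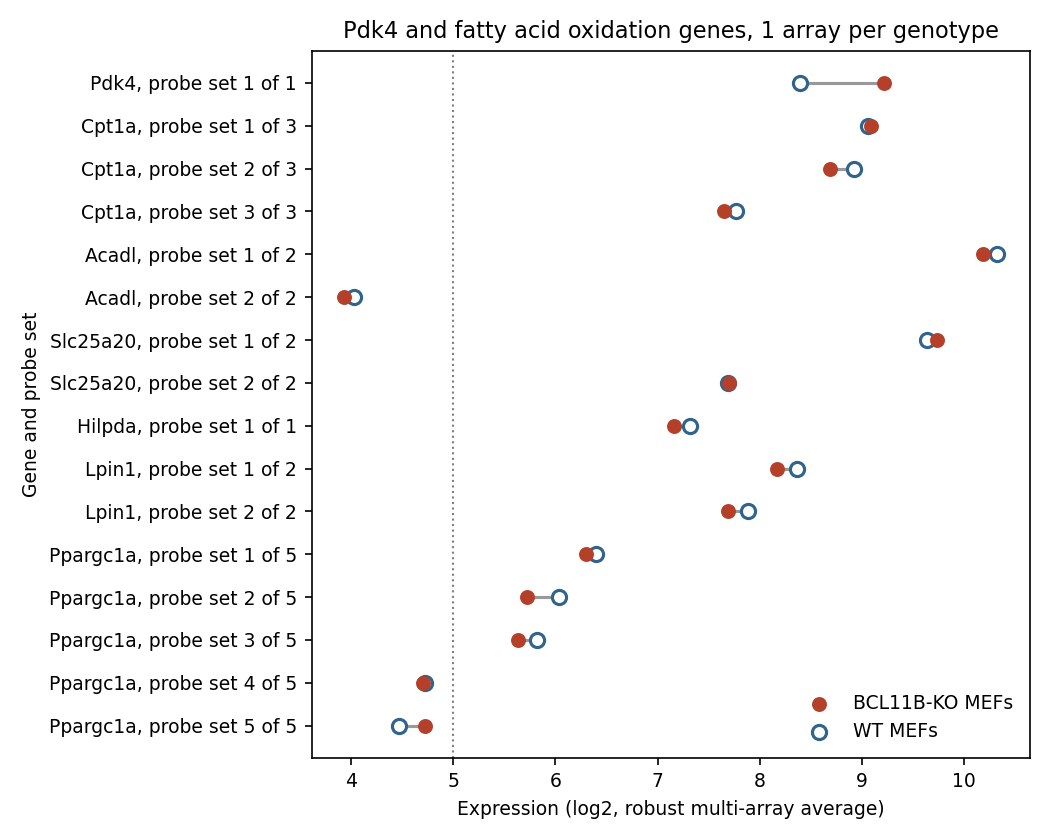
The 16 probe sets of the 7 genes (vertical axis) by their log2 expression (horizontal axis), with BCL11B-KO MEFs as filled and WT MEFs as open circles (1 array each, so no error bars). The circles of Pdk4 lie farthest apart (9.21 and 8.40), and the 3 probe sets left of the dotted line average under 5.

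Apart from Pdk4, the group thus spanned −0.19 to 0.10 log2 units on the brightest probe sets, at most 1.14-fold in either direction, with 2 genes above 0 and 4 below. The median over all 7 genes was −0.10, beside a median of 0 over all 12331 genes. Of all genes, 26.6% lay farther from 0 than Lpin1 and 85.2% lay farther from 0 than Cpt1a, while 1.52% lay farther from 0 than Pdk4. Even at 1.2-fold Pdk4 was the only one of the 7 to be counted on the brightest probe sets. Of all genes, 8.81% were higher and 7.8% were lower by this size. The second probe set of Ppargc1a, not used for the count, was 1.25-fold lower in BCL11B-KO MEFs. The 3 genes outside the group whose difference lay nearest to that of Pdk4 were Slc25a24, which encodes a mitochondrial carrier of ATP-Mg and phosphate, with 0.82, the amine oxidase gene Aoc3 with 0.82 and the transcription factor gene Gata2 with 0.82. This likeness is 1 difference over 2 arrays, and a dimmer probe set of Gata2 differed by 0.076.

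**Figure D2:**
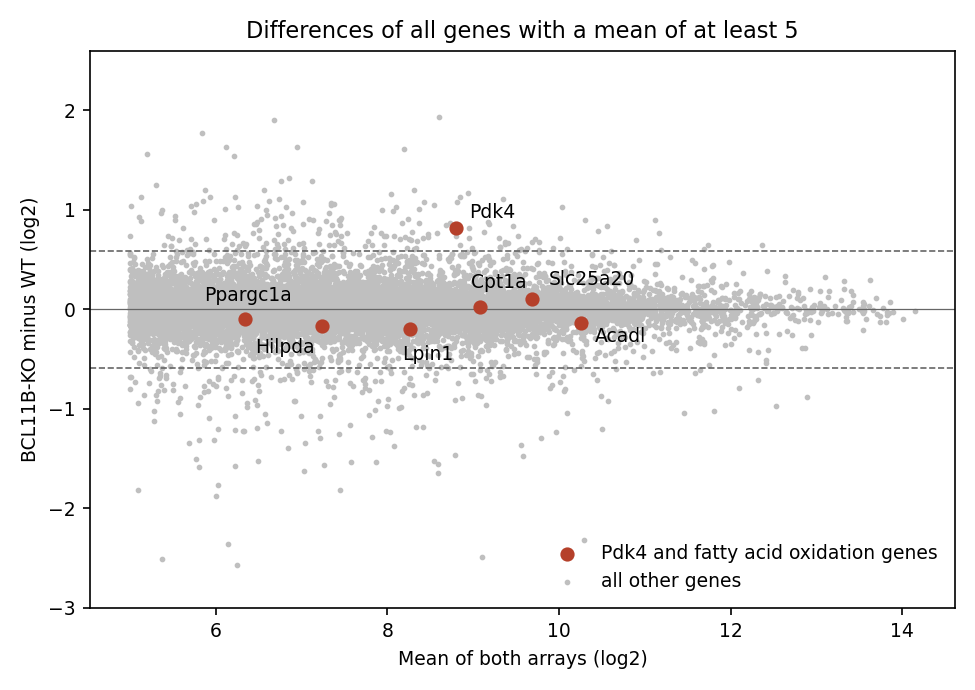
BCL11B-KO minus WT log2 expression (vertical axis) against the mean of both arrays (horizontal axis, log2) for the 7 genes (red) and all other genes with a mean of at least 5 (grey), with dashed lines at 1.5-fold and 1 gene outside the vertical axis. Pdk4 at 0.82 lies above the upper line and the other 6 lie between −0.19 and 0.10.

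The other regulators of pyruvate dehydrogenase did not reach 1.5-fold. Of 6 kinases and phosphatases none was counted, with a median of 0.090. Pdk3 was the highest with 8.42 in BCL11B-KO and 7.99 in WT MEFs (0.43), followed by the phosphatase gene Pdp1 with 0.17, while Pdpr, which encodes a regulatory subunit of the phosphatase, differed by −0.018. Pdk1 and Pdk2 differed by 0.042 and 0.14. Among 9 genes of the complex itself, pyruvate transport and lactate dehydrogenase, 1 was higher and none was lower. This was Ldhb, which encodes the heart form of lactate dehydrogenase, at 10.07 in BCL11B-KO and 9.47 in WT MEFs (1.51-fold), and as the mean over its 4 probe sets it differed by 0.51, which is under 1.5-fold. The subunit genes Pdhb and Pdhx differed by 0.0052 and −0.023, and the pyruvate carboxylase gene Pcx by 0.32.

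The wider oxidation pathway was also without a gene at 1.5-fold, a size reached upward by 1.61% and downward by 1.75% of all genes. Among 16 further genes of mitochondrial β-oxidation, 10 lay above 0 and 6 below, with a median of 0.035. At 1.2-fold 4 were higher and none was lower, beside 8.81% and 7.8% of all genes. Acadm, the medium-chain acyl-CoA dehydrogenase, read 10.60 in BCL11B-KO and 10.17 in WT MEFs (0.43), and Acad11 differed by 0.37, or by 0.17 on its dimmer probe set. The other 2 were Decr1, an auxiliary enzyme for unsaturated fatty acids, with 0.35, and Eci1, an enoyl-CoA isomerase, with 0.32. The thiolase gene Acaa2 and the isomerase gene Eci2 were lowest with −0.18 and −0.12. The 6 other genes of the carnitine shuttle had a median of 0.016, from Crat with −0.18 to Cpt1c with 0.38. Peroxisomal β-oxidation, with 10 genes and a median of 0.062, ran from Pex11a with −0.36 to the transporter gene Abcd2 with 0.37. The probe sets of Abcd2 spanned −0.36 to 0.37, and all but the brightest averaged under 5.

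In the lists for acyl-CoA supply, malonyl-CoA, glycerolipid synthesis, ketone bodies and oxidative phosphorylation, no gene passed 1.5-fold on its brightest probe set. Among 10 acyl-CoA synthetases, thioesterases and fatty acid transport proteins none was counted, and the thioesterase gene Acot1 with 0.38 and the synthetase gene Acsl4 with 0.33 were highest. Of 7 genes that set the level of malonyl-CoA, the inhibitor of CPT1, none was counted, and Acaca, which makes it, differed by 0.20. The 8 genes of glycerolipid synthesis ran from Gpam with −0.18 to Dgat1 with 0.19, and Lpin2, a relative of Lpin1, differed by −0.15. Of 3 ketone body genes, Bdh1, a ketone dehydrogenase, was lowest with −0.49. Its other probe set, which averaged under 5, differed by −1.11. Their mean of −0.80 is past 1.5-fold only through that dim probe set. Mitochondrial biogenesis and oxidative phosphorylation, with 21 genes, stayed between −0.22 for Polg and 0.15 for the citrate synthase gene Cs, with none at 1.2-fold.

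Genes past 1.5-fold among the regulators and other targets of PPARs were lower in BCL11B-KO MEFs, opposite to Pdk4. Smaller differences ran both ways. Of all 12331 genes, 1.75% were lower and 1.61% were higher by 1.5-fold or more. Pparg, which encodes the receptor for pioglitazone, read 6.40 in BCL11B-KO and 7.11 in WT MEFs, which is 1.64-fold lower. Ppargc1b, a relative of Ppargc1a, was 1.51-fold lower with 5.51 in BCL11B-KO and 6.10 in WT MEFs, and these 2 were the regulators counted of 12. Each has 1 probe set, and Ppargc1b was dim and only just past 1.5-fold. Ppara and Ppard, the other PPAR genes, differed by 0.061 and 0.066, and another probe set of Ppara, which averaged under 5, by −0.38. Of 9 other PPAR targets, 2 were lower and none was higher, while 4 lay above 0 and 5 below. At 1.2-fold 4 were lower and 2 were higher, beside 7.8% and 8.81% of all genes. Angptl4, a secreted inhibitor of lipoprotein lipase, read 7.74 in BCL11B-KO and 8.92 in WT MEFs (−1.18), and its other probe set differed by −0.69. Cd36, a fatty acid receptor, read 7.04 in BCL11B-KO and 7.75 in WT MEFs (−0.71), with −0.67 as the smallest difference of its 3 probe sets. The highest targets were Vnn1 with 0.32 and Fabp4 with 0.31, and the 4 probe sets of Fabp4 spanned −0.26 to 0.31. Plin2, a coat protein of lipid droplets, was the 1 gene counted of 5 triglyceride lipases and their partners. On its only probe set it read 9.72 in BCL11B-KO and 10.39 in WT MEFs (−0.67). Abhd5, the activator of ATGL, differed by −0.40, or by −0.16 as the mean over its probe sets, and G0s2, an inhibitor of ATGL like Hilpda, by 0.19.

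**Figure D3:**
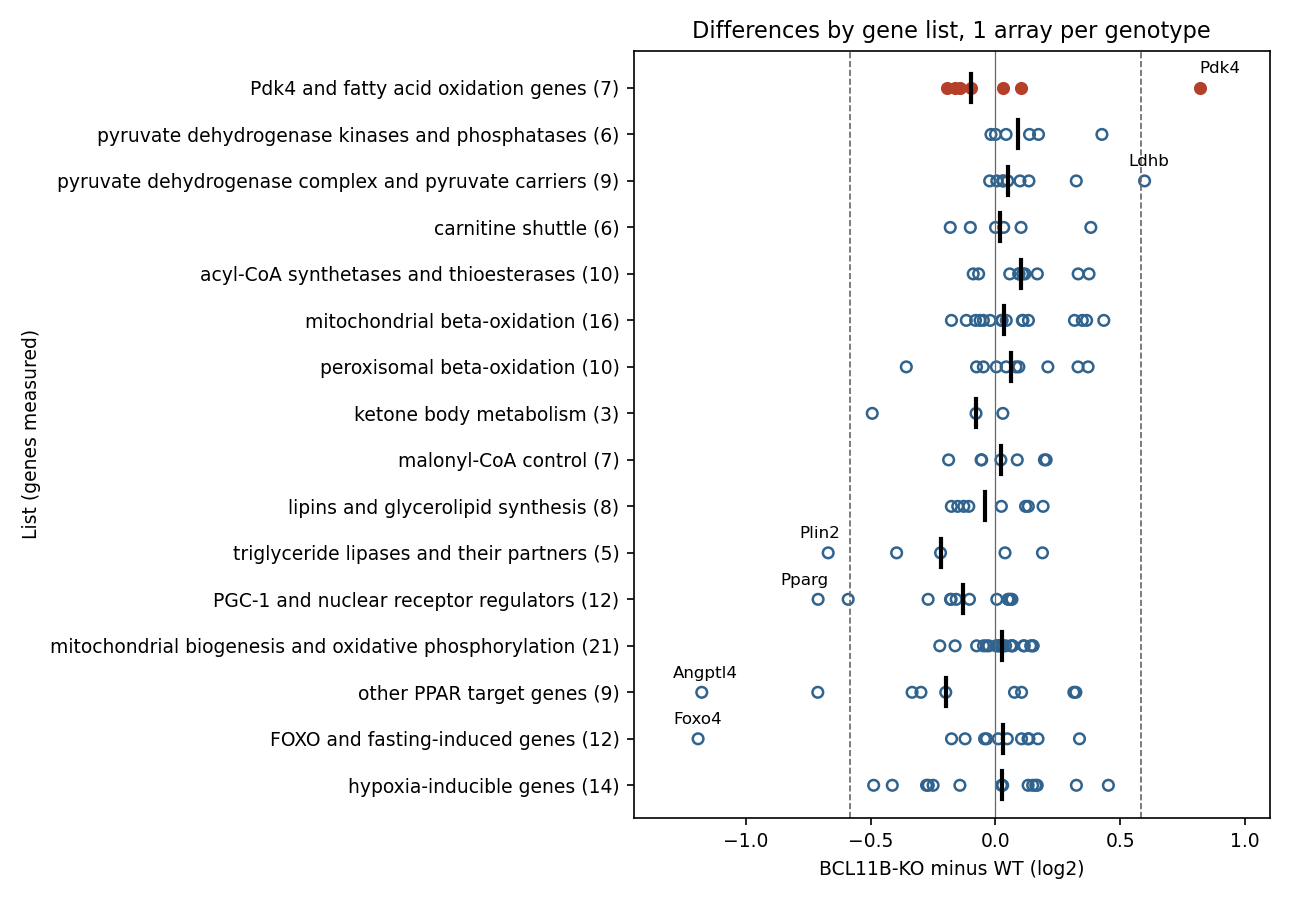
BCL11B-KO minus WT log2 expression (horizontal axis) of the 7 genes (top row, filled) and of 15 further lists (vertical axis, genes measured in brackets), with a circle for each gene, a black bar at each median and dashed lines at 1.5-fold. Pdk4 at 0.82 and Ldhb at 0.60 lie past the right line, and Foxo4 at −1.19, Angptl4 at −1.18, Cd36, Pparg, Plin2 and Ppargc1b lie past the left line.

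Pdk4 is also known as a target of FOXO factors, and Hilpda as a target of hypoxia-inducible factors, so genes of both kinds were read beside them. Of 12 FOXO factors and fasting-induced genes, 1 was lower and none was higher. This was Foxo4 itself, with 5.89 in BCL11B-KO and 7.08 in WT MEFs (−1.19), and its other probe set differed by −0.066. Foxo1 and Foxo3 differed by 0.10 and 0.13, and Cited2, the highest, by 0.34. Klf15, a glucocorticoid-induced factor of the fasting response, differed by 0.17. The 14 genes read for hypoxia included Epas1 and Hif1a, which encode hypoxia-inducible factors themselves, and none of the 14 was counted. They ran from Epas1 with −0.49 and Vegfa with −0.41 to Adm with 0.45 and Hif1a with 0.32, beside −0.16 for Hilpda. Other probe sets differed by 0.31 for Epas1, by 0 for Vegfa and by 0.25 for Adm.

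The cultures differed in more than Bcl11b. Bcl11b itself was 2.26- to 2.97-fold lower in BCL11B-KO MEFs over its 4 probe sets, between 5.32 and 7.40 in BCL11B-KO and between 6.79 and 8.77 in WT MEFs, and the deleted exons are not given in the sources used here. Fibroblast markers were high in both, from 10.07 to 13.97 in BCL11B-KO and from 10.52 to 14.06 in WT MEFs, but 3 of the 10 were past 1.5-fold. Dcn, a matrix proteoglycan gene, differed by −0.88, the surface antigen gene Thy1 by −0.65 and S100a4 by 0.65. Xist, expressed from the inactive X chromosome of female cells, read 4.80 in BCL11B-KO and 10.80 in WT MEFs, and the Y-linked gene Eif2s3y read 8.97 in BCL11B-KO and 7.89 in WT MEFs. The Y-linked gene Kdm5d read 7.81 in BCL11B-KO and 6.84 in WT MEFs (0.97), and Uty read 7.61 in BCL11B-KO and 6.80 in WT MEFs (0.81). The WT array thus read Xist and Y-linked genes together, while the BCL11B-KO array read Y-linked genes with Xist under 5. Genotype and the sex of the embryos cannot be told apart here. Of 13 macrophage markers 11 were lower by 1.5-fold or more in BCL11B-KO MEFs and 0 higher, from Mrc1 with −1.07 to Adgre1 with −0.61. The other 2 were Fcer1g with −0.50 and Cd14 with −0.056. As means over their probe sets, Csf1r (−0.53), Ptprc (−0.35) and Laptm5 (−0.36) were under 1.5-fold, while C1qb (−0.82) stayed past it. The mean of Ptprc includes a probe set that averaged under 5, where low values hold mostly background. The summed level of all 13 was 11.44 in BCL11B-KO and 12.26 in WT MEFs, all averaged at least 5, and Ptprc, just under 5 in BCL11B-KO and at 5.81 in WT MEFs, was the dimmest. In bulk RNA fewer cells of a type and less RNA per cell cannot be told apart. Of 13 skeletal muscle markers, a tissue rich in Pdk4, 6 averaged under 5, among them Myod1 and Myog, and the summed level was 9.48 in BCL11B-KO and 9.70 in WT MEFs. Of the 7 brighter ones 2 were lower past 1.5-fold, the cardiac actin gene Actc1 with 7.39 in BCL11B-KO and 8.20 in WT MEFs and the myoglobin gene Mb with −0.75, whose other probe set differed by −0.079. Acta1, the skeletal actin gene, differed by 0.37. Among adipocyte markers, Lpl was 1.96-fold lower, Cebpa differed by −0.53 and Adipoq by 0.56. The part of these cells and of embryo sex in the levels of Pdk4, Cd36, Plin2 and Angptl4 was not tested. For β-actin, the 3′ control probe set exceeded the 5′ one, a gap that grows as RNA degrades, by 1.47 in BCL11B-KO and 1.64 in WT MEFs. For Gapdh the same gap was 0.515 in BCL11B-KO and 0.484 in WT MEFs, so the controls did not run the same way.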

How the data were processed

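The deposited table holds log2 expression of 45101 probe sets on 2 arrays, which the authors obtained from scanned Affymetrix Mouse Genome arrays by background correction, normalization between arrays and summary of probes (RMA). R 3.0.3 is named in the submitters' processing notes. Such normalization hides a change of total mRNA, and background shrinks differences of dim genes. The annotation paired 34958 probe sets with 1 gene, and others were not used. Each gene was read on its brightest probe set by the mean of both arrays, and a gene was counted only where this mean was at least 5. Summed levels are log2 of summed linear values. The 7 genes, the lists and the alternatives (other probe sets, centring, filters and folds) were chosen with earlier results of these data known. Named were the 7 genes, list members past 1.5-fold and the 2 highest and 2 lowest of most lists (macrophage markers by range), the 3 genes nearest to Pdk4, and relatives of the 7 picked after their values were seen. Without replicates no test between genotypes was run. Counting was tested on simulated data. Python 3.11.15, numpy 2.4.6, pandas 2.3.3, statsmodels 0.14.6 and matplotlib 3.10.9 were used. The number of arrays limits the precision.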

Additional observations from a re-analysis of the deposited data

How the results depend on the processing

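Pdk4 stayed at 0.82 under every choice of probe set and filter, since it has 1 probe set, and read 0.83 after a loess fit was subtracted. On the brightest probe sets it was the only one of the 7 genes past 1.5-fold and past 1.2-fold, and 0 of them passed 2-fold. Over all genes, asking for a mean of 7 left 112 higher and 124 lower in BCL11B-KO MEFs. A limit of 1.2-fold gave 1086 higher and 962 lower genes, and one of 2-fold gave 43 higher and 62 lower. These counts change by construction. Cpt1a turned to −0.23 without probe sets that carry a suffix and to −0.12 on its dimmest probe set. Without suffixed probe sets the macrophage marker Laptm5 turned to 0.040, and the cause was not tested. For 106 named genes, 640 of 691 alternative differences moved by less than 0.145 log2 units, as did 140 of 150 list medians. Many of these gene values could not move that far. Filters on the mean leave a gene's difference as it is, and centring shifts it by at most 0.014. A gene with 1 probe set cannot change with the choice of probe set. These shares are therefore no measure of robustness. The loess fit lay between −0.011 and 0.014 and the median difference was 0. No paired analysis was possible because each genotype has 1 array.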

Other observations

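Markers of brown adipocytes, which burn fatty acids for heat, were read as well. Of 4 with a mean of at least 5, Dio2, which encodes a deiodinase that activates thyroid hormone, read 9.61 in BCL11B-KO and 8.75 in WT MEFs and was 1.81-fold higher. The other 3 were not past 1.5-fold. Prdm16 differed by 0.47, or by 0.080 as the mean over its probe sets, Zic1 by 0.34 and Cox8b by −0.17. Ucp1, Cidea and Elovl3 averaged under 5. Of all 12331 genes, 328 read exactly the same on both arrays, among them Pdp2.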
